A study of Mus musculus with 10 samples.

Results

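The genes described here encode 10 receptors for serotonin and noradrenaline, the transmitters by which raphe and noradrenergic brainstem neurons set the excitability of the breathing network. They were chosen by name, 6 serotonin receptor genes (Htr1a, Htr1b, Htr2a, Htr2c, Htr4 and Htr7) and 4 adrenoceptor genes (Adra1a, Adra1b, Adra2a and Adra2c), out of 55367 genes listed in the deposited tables, and all 10 were found there. They were followed over 10 inspiratory neurons of the preBötzinger complex (preBötC), each aspirated into a patch pipette from a neonatal mouse slice and sequenced as 1 library. Type-1 neurons, putatively rhythmogenic, are samples 5 (P0), 6 (P3) and 7 (P3) from Dbx1;Ai148 mice and sample 4 (P3) from a CD-1 mouse. The 1 Type-2 neuron, putatively pattern-generating, is sample 1 (P0, Dbx1;Ai148). The Unknown neurons, whose electrical phenotype was ambiguous, are samples 2 (P2), 3 (P0), 8 (P0), 9 (P2) and 10 (P1), all from CD-1 wild-type mice without a reporter. In Dbx1;Ai148 mice, Cre driven by the Dbx1 promoter switches on the calcium indicator GCaMP6f in cells derived from Dbx1-expressing precursors, on a C57Bl/6J or mixed background, so line, reporter and background differ together. The legends of the study's figures assign neurons to mouse lines in another way, and the sample labels were used. All slices were kept in raised potassium, and Dbx1;Ai148 neurons were picked by their rhythmic fluorescence. Since which neurons came from the same pup is not labelled, and only 1 neuron is of Type-2, levels are described per neuron, without a test between types and without p-values.

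As background, all 10 proteins are G protein-coupled receptors. Htr2a, Htr2c, Adra1a and Adra1b couple to Gq, which activates phospholipase C and generally excites a neuron. Htr4 and Htr7 couple to Gs, which raises cAMP. Htr1a, Htr1b, Adra2a and Adra2c couple to Gi or Go, which lower cAMP and often dampen firing or transmitter release. In breathing circuits, serotonin and noradrenaline are known for exciting rhythm-generating and motor neurons mainly through the Gq and Gs classes.

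Levels are given in fragments per kilobase of gene length and per 1000000 counted fragments (FPKM), which allows genes to be compared within a neuron. Libraries held between 21392146 and 36629393 fragments on genes, and a count of 0 was taken to allow up to 3 fragments. Neuronal markers were present in most libraries, with the 8 listed genes averaging 4.51 to 7.58 as log2(FPKM + 1), but only 2.10 in sample 4. That library instead held all 8 listed microglia genes at 1 FPKM or more, with a summed level of 15398 FPKM. Sample 2 held the same 8 genes at 2039 FPKM in sum, and the other 8 libraries had 0.685 to 492 FPKM. Samples 2, 3 and 8 held at least 8 of 10 astrocyte genes at that level, the other 7 libraries at most 5. In summed level of the 10 astrocyte genes, samples 2, 3 and 8 had 5336, 10419 and 3646 FPKM. Sample 4 had 6528 FPKM and the Type-2 sample 1 had 1975 FPKM, against 29 to 514 FPKM in samples 5, 6, 7, 9 and 10. Samples 1 to 4 also had fewer genes at 1 FPKM or more (5055 to 6795) than samples 5, 6, 7, 8 and 10 (8720 to 9307), and sample 9 had 6632. The part of these differences in the receptor levels was not tested.

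Of the 100 pairs of receptor gene and neuron, 22 were at 1 FPKM or more, where 13.4% of the pairs over all listed genes, pseudogenes included, reached that level. Each of the 10 genes did so in at least 1 neuron, against 29.9% of all listed genes. Htr7 was the most widespread and the most abundant, in 6 neurons with 25.8 ± 26.5 FPKM (SD, n = 10 neurons). Htr2a and Htr2c each reached 1 FPKM in 4 neurons and Adra2c in 2. The remaining 6 genes did so in 1 neuron each, which of all genes at that level somewhere was the case for 24.9%. In 8 of the 10 genes over 50% of the summed FPKM came from 1 neuron, against 48.5% of the 16546 genes that reached 1 FPKM anywhere. The 22 values at or above the limit rested on 182 to 6978 fragments. The lowest of them was 1.36 FPKM and the highest value below the limit 0.654 FPKM.

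**Figure D1:**
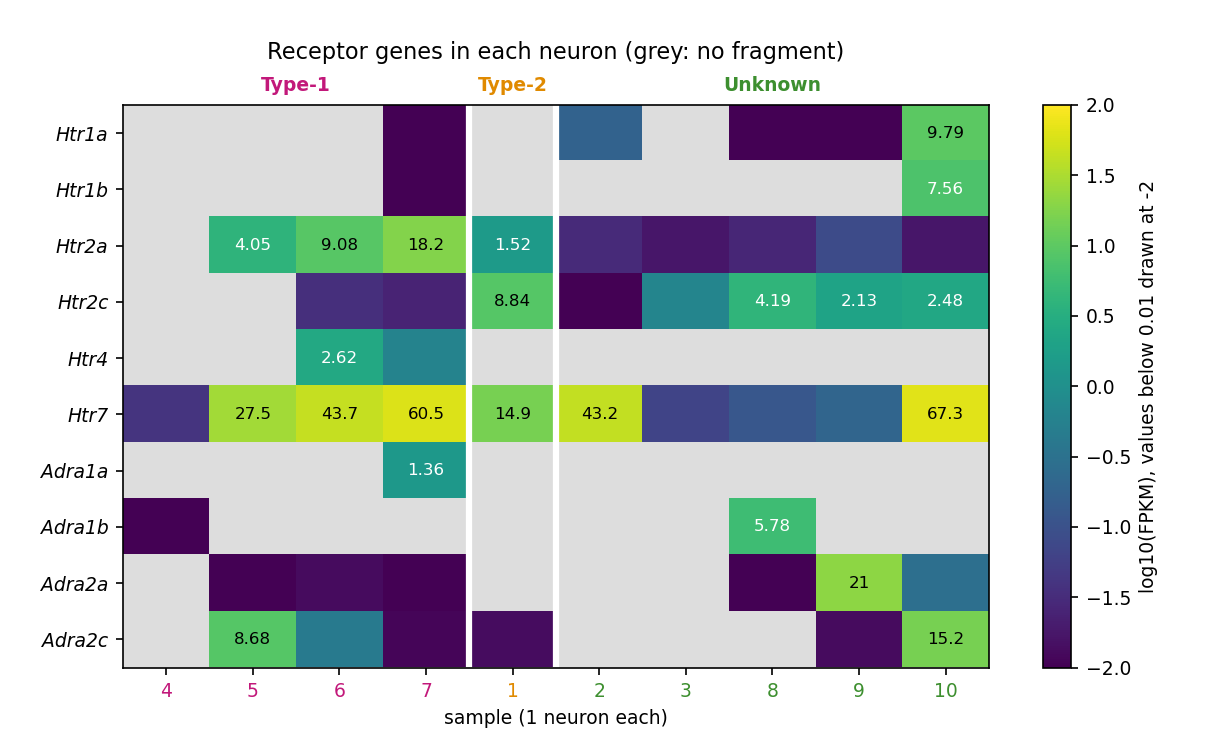
FPKM of the 10 receptor genes (rows) in each of the 10 neurons (columns, grouped by type), with colour on a log10 scale, numbers where a gene reached 1 FPKM and grey where no fragment was counted. Htr7 fills 6 columns, Htr2a and Htr2c fill 4 columns each and share only the Type-2 neuron, and samples 3 and 4 have no numbered cell.

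The Gs-coupled receptor Htr7 (chromosome 19, 35958734 to 36057507 in GRCm38, minus strand) measured 27.5 FPKM (sample 5), 43.7 FPKM (sample 6) and 60.5 FPKM (sample 7) in Dbx1;Ai148 neurons of Type-1, and 14.9 FPKM in the Type-2 neuron. Among Unknown neurons it was at 43.2 FPKM in sample 2 and 67.3 FPKM in sample 10. Neurons with Htr7 thus came from both mouse lines and all 3 types. In the other 4 neurons Htr7 was at 0.0661 FPKM (sample 3), 0.04 FPKM (sample 4), 0.122 FPKM (sample 8) and 0.2 FPKM (sample 9). The gene was therefore either clearly present or near 0, with no neuron in between, and Type-1 and Unknown values overlapped. In the 6 neurons with the gene, 73.4% to 91.9% of all genes with a fragment had a lower FPKM. The mean was 32.9 ± 25.7 FPKM (SD, n = 4 neurons) in Type-1 neurons, and 43.9 ± 16.5 FPKM (n = 3) without sample 4. In Unknown neurons it was 22.2 ± 31.4 FPKM (SD, n = 5 neurons), with a median of 0.2 FPKM.

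Fragments of 1 library can turn up in another when libraries are sequenced together, so the low values were set beside the fragments expected from the other 9 libraries. The rates for this were measured on genes nearly private to 1 neuron and lay between 0% and 0.157% of a gene's fragments in the source library. Htr1b was 1 of the 47 such genes of sample 10, and Adra2a 1 of the 84 of sample 9. The expected numbers of these receptor genes thus drew in part on their own counts. For Htr7, 7, 4, 11 and 15 fragments were counted in samples 3, 4, 8 and 9, and 3.93, 4.76, 11 and 10.5 were expected. Each expected number lies within the exact 95% Poisson interval of the count, for example 8.4 to 24.7 fragments in sample 9. In the 6 neurons at 1 FPKM or more, 1086 to 6978 fragments were counted and at most 8.52 expected. Over all 10 genes, 29 pairs held a fragment but stayed below 1 FPKM. In 19 of them the expected number fell within the interval of the count, and in 10 the interval lay above it. The largest of these 10 were Htr2c in sample 3 (190 fragments), Htr4 in sample 7 (77), Adra2c in sample 6 (49), Adra2a in sample 10 (42) and Htr1a in sample 2 (29), each with fewer than 1 expected. Intervals cover counting error only, since the reads carry no molecular identifiers.

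**Figure D2:**
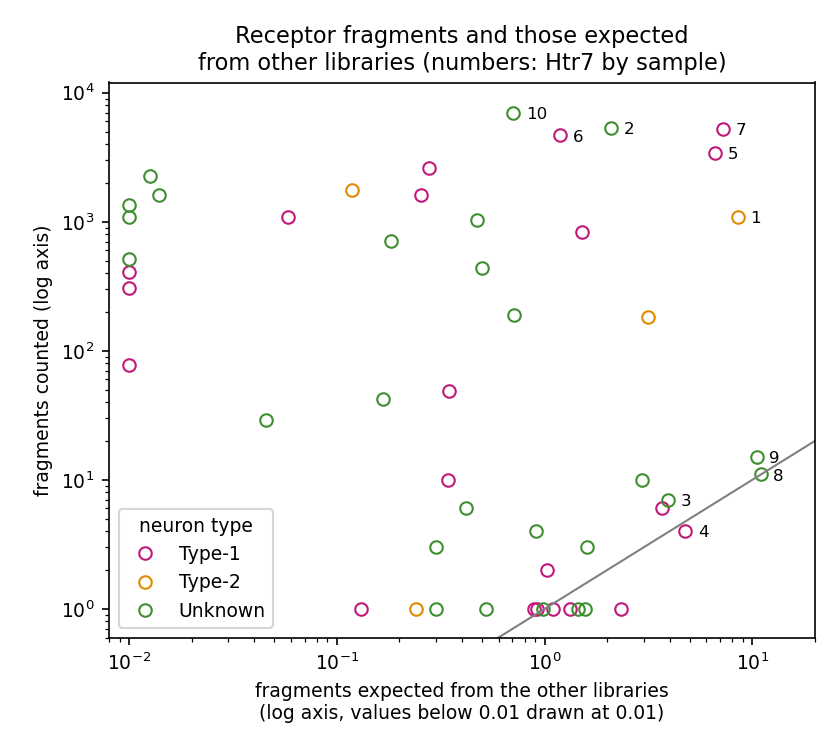
Fragments counted for each receptor gene and neuron with at least 1 fragment (vertical, log axis) against the fragments expected from the other libraries (horizontal, log axis), coloured by neuron type, with the line of equality in grey. The numbered Htr7 points of samples 3, 4, 8 and 9 lie close to the line at 4 to 15 fragments, and those of the other 6 neurons lie at 1086 fragments or more.

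The Gq-coupled receptor Htr2a (chromosome 14, 74640840 to 74709494 in GRCm38, plus strand) measured 4.05, 9.08 and 18.2 FPKM in the Type-1 neurons of samples 5, 6 and 7, respectively, and 1.52 FPKM in the Type-2 neuron. In the 5 Unknown neurons it ranged from 0.0172 to 0.0808 FPKM, with a median of 0.0269 FPKM, and sample 4 had no fragment. All 4 neurons from Dbx1;Ai148 mice were therefore above all 6 from CD-1 mice, without overlap. Of the genes at 1 FPKM or more somewhere, 1.04% showed the same order of the mouse lines and 0.792% the opposite one. Of the 10 receptor genes, Htr2a alone did. The lowest value of samples 5, 6 and 7 was 50.1 times the highest Unknown value, and 2.94% of genes had these 3 neurons above every Unknown neuron. They were also above the Type-2 neuron and sample 4, an order found in 1.79% of genes. With sample 4 included, Type-1 and Unknown neurons overlapped for Htr2a. No receptor gene had all Type-1 above all Unknown neurons or the reverse, as 0.58% and 0.393% of genes did. Samples 2, 8, 9 and 10 held 3 to 10 Htr2a fragments, more than the 0.3 to 2.94 expected from other libraries, at levels of 0.0808 FPKM or less. All Unknown neurons came from CD-1 mice, and the 1 CD-1 neuron of Type-1, sample 4, is the library low in neuronal markers. Only that neuron and the Type-2 neuron set type apart from mouse line, and line and reporter cannot be told apart.

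Htr2c (chromosome X, 146962513 to 147197277 in GRCm38, plus strand), the other Gq-coupled serotonin receptor of the list and known for the editing of its RNA, was found in a different set of neurons, with 1 in common. It was highest in the Type-2 sample 1, at 8.84 FPKM. The Unknown samples 8, 9 and 10 had 4.19, 2.13 and 2.48 FPKM, sample 3 had 0.654 FPKM and sample 2 had 0.00296 FPKM. In the Type-1 samples 6 and 7 the gene was at 0.034 and 0.025 FPKM, and samples 4 and 5 had no fragment. No Type-1 neuron thus reached 1 FPKM, while 3 of 5 Unknown neurons did, but the very low sample 2 made the 2 types overlap. Htr2a and Htr2c were at 1 FPKM or more together in sample 1 alone. There were 3 neurons with Htr2a alone (samples 5, 6 and 7), 3 with Htr2c alone (samples 8, 9 and 10) and 3 with neither (samples 2, 3 and 4). As a description over the 10 neurons, which share library preparation but differ in type, line and depth, log2(FPKM + 1) of the genes had a Pearson r of -0.36 and a Spearman rho of -0.06. The 0.654 FPKM of sample 3 rested on 190 fragments with 0.712 expected from other libraries.

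**Figure D3:**
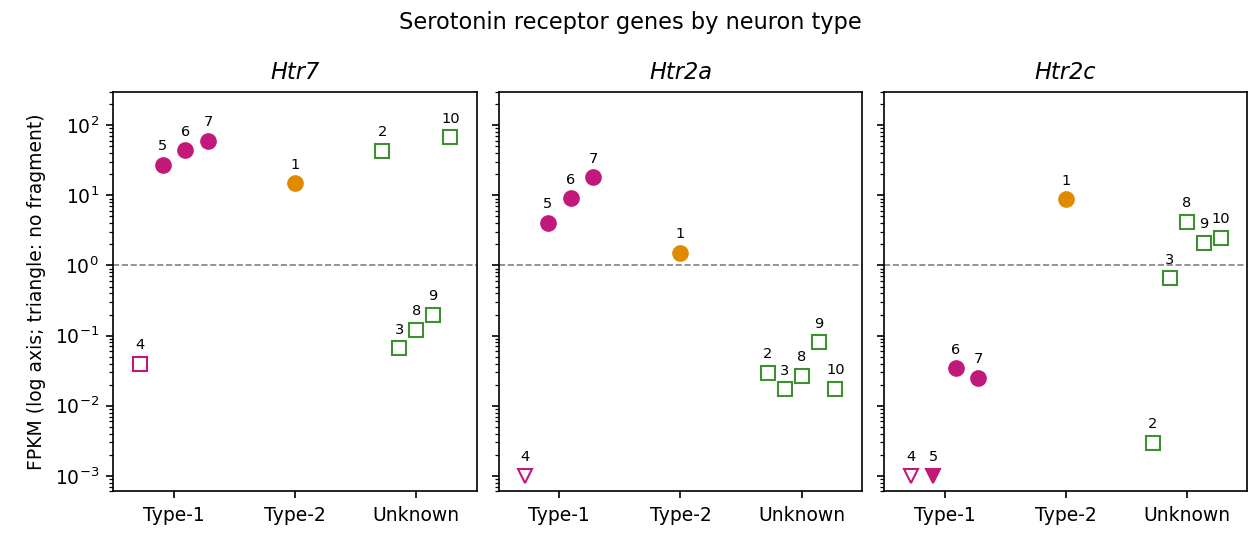
FPKM of Htr7, Htr2a and Htr2c (log axis) in each neuron by type, with sample numbers, filled circles for Dbx1;Ai148 mice, open squares for CD-1 mice, triangles for neurons without a fragment and a dashed line at 1 FPKM. Htr2a is above the line in samples 1, 5, 6 and 7, Htr2c in samples 1, 8, 9 and 10, and Htr7 in 6 neurons of all 3 types.

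The upstream sequences of these 3 genes are shown because they carried most of the receptor signal and differed in distribution. Each is taken from RefSeq on GRCm38.p6 and ends before the first base of the gene in both RefSeq and GENCODE M21, read 5′ to 3′ on the gene's strand. Capitals mark matches on either strand to 5 short motifs, the TATA box (TATAAA), the GC box (GGGCGG), the CCAAT box (CCAAT), the cAMP response element (TGACGTCA) and the E-box (CANNTG).
Htr7, chr19:36057508-36057610, minus strand: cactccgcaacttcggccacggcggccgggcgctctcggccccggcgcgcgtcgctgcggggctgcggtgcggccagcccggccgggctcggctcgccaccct
Htr2a, chr14:74640624-74640839, plus strand: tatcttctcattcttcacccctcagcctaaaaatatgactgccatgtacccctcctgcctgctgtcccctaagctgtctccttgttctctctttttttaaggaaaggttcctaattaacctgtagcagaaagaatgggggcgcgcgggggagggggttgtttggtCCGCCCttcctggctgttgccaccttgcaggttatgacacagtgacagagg
Htr2c, chrX:146962263-146962512, plus strand: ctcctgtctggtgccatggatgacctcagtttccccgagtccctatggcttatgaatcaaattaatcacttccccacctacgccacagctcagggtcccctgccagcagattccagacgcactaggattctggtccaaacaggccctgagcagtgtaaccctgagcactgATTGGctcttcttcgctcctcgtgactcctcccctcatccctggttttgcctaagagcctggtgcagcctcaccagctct

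The Htr7 stretch of 103 bases was 82.5% G or C and held none of the 5 motifs. The Htr2a stretch of 216 bases was 51.4% G or C and held 1 GC box, on the minus strand, which 27.9% of 32851 promoter windows of that length also held. The Htr2c stretch of 250 bases was 55.6% G or C and held 1 CCAAT box, also on the minus strand, which 33.8% of windows of that length held. A match is a description of these letters only.

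Htr4, the other Gs-coupled receptor, was found in 2 neurons alone, both Type-1. It was at 2.62 FPKM in sample 6 (405 fragments) and 0.611 FPKM in sample 7 (77 fragments), with 0 expected from other libraries in either, and had no fragment in the other 8 neurons. Sample 6 was thus the 1 neuron in which both Gs-coupled receptor genes reached 1 FPKM, with Htr7 at 43.7 FPKM.

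The Gi-coupled serotonin receptors Htr1a (chromosome 13, 105443639 to 105448122 in GRCm38), known as the autoreceptor on raphe cell bodies, and Htr1b (chromosome 9, 81628291 to 81633828), known on axon terminals, both reached 1 FPKM in the Unknown sample 10 and in no other neuron. There Htr1a was at 9.79 FPKM (1340 fragments) and Htr1b at 7.56 FPKM (1090 fragments). Htr1a was at 0.178 FPKM in sample 2, from 29 fragments, and at 1 fragment or 0 in the other 8 neurons. Htr1b had 1 fragment in sample 7 and none in the other 8 neurons. Htr1b shares 852 exon bases with the antisense gene D430036J16Rik, and the strand setting of the counting was not found in the sources used here. That antisense gene had 829 fragments in sample 7 and 0 in sample 10, so the neuron with Htr1b was not the one with its antisense partner.

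Among adrenoceptors, the Gi-coupled Adra2c (chromosome 5, 35278319 to 35281763 in GRCm38) was at 15.2 FPKM in the Unknown sample 10 and 8.68 FPKM in the Type-1 sample 5. It was at 0.452 FPKM in sample 6, from 49 fragments, and at 1 fragment or 0 in the other 7 neurons. Adra2a (chromosome 19, 54044151 to 54048982), the receptor that in noradrenergic cells acts as autoreceptor, was at 21 FPKM in the Unknown sample 9 (2243 fragments). It was at 0.285 FPKM in sample 10 and at 2 fragments or fewer in the other 8 neurons. The 2 Gi-coupled adrenoceptor genes thus each led in another neuron and reached 1 FPKM together in none. Htr1a and Adra2c are annotated with a single exon each, so their fragments carry no splice junction by which RNA could be told from genomic DNA. The exons of the 2 Adra2a transcripts merge into 1 block without a gap, so its fragments need not carry a junction.

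The Gq-coupled adrenoceptors, which mediate excitation by noradrenaline, were found in 1 neuron each. Adra1a (chromosome 14, 66635251 to 66771168 in GRCm38) was at 1.36 FPKM in the Type-1 sample 7, from 305 fragments, with no fragment in any other neuron. Adra1b (chromosome 11, 43774606 to 43901210) was at 5.78 FPKM in the Unknown sample 8, from 519 fragments, with 1 fragment in sample 4 and none in the other 8. Sample 8 also held 10 of 10 astrocyte genes at 1 FPKM or more, with a summed level of 3646 FPKM. Of 8 oligodendrocyte lineage genes it held 4 at that level, as did samples 2 and 3, with a summed level of 107 FPKM against 0.00824 to 337 FPKM elsewhere. In that list the precursor marker Cspg4, singled out after its values were seen, was at 4.71 FPKM in sample 8 and at 5 fragments or fewer in every other library. Pdgfra, another precursor marker singled out likewise, was at 0.668 FPKM in sample 8, from 178 fragments, and at 1 fragment or none elsewhere. The part of these glial transcripts in the Adra1b level was not tested. In 8 of the 10 neurons, then, neither α1-adrenoceptor gene of the list reached 1 FPKM.

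Seen neuron by neuron, each of the 4 Dbx1;Ai148 neurons held 3 receptor genes at 1 FPKM or more, and all of them held Htr7 with Htr2a. The third gene was Htr2c in sample 1, Adra2c in sample 5, Htr4 in sample 6 and Adra1a in sample 7. The CD-1 neurons ranged from 0 to 5 genes. Sample 10 held 5 (Htr1a, Htr1b, Htr2c, Htr7 and Adra2c), the most of all neurons. Sample 2 held Htr7 alone, sample 8 Htr2c with Adra1b, and sample 9 Htr2c with Adra2a. Samples 3 and 4 held none. The mean number was 2.25 ± 1.5 in Type-1 neurons (SD, n = 4), 3 in the Type-2 neuron and 2 ± 1.87 in Unknown neurons (SD, n = 5), so the types differed by less than their spread. Without sample 4 the 3 Type-1 neurons had 3 genes each, and without sample 10 the mean of the Unknown neurons was 1.25.

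Summed over the 10 genes, receptor transcripts amounted to 40.3, 55.9 and 80.7 FPKM in samples 5, 6 and 7 and 25.3 FPKM in sample 1. Htr7 made up 59% to 78.2% of these sums. Sample 10 had the highest sum, 103 FPKM, of which Htr7 was 65.5%, and sample 2 had 43.4 FPKM, of which it was 99.5%. Samples 8 and 9 had 10.1 and 23.5 FPKM with Htr7 at 1.2% or less, and samples 3 and 4 had 0.737 and 0.05 FPKM. Serotonin receptors exceeded adrenoceptors in 8 neurons. The exceptions were sample 8, with 4.35 FPKM of serotonin receptor and 5.78 FPKM of adrenoceptor transcripts, and sample 9, with 2.42 and 21 FPKM. Sample 4, the lowest, is the library with low neuronal and high microglial markers.

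**Figure D4:**
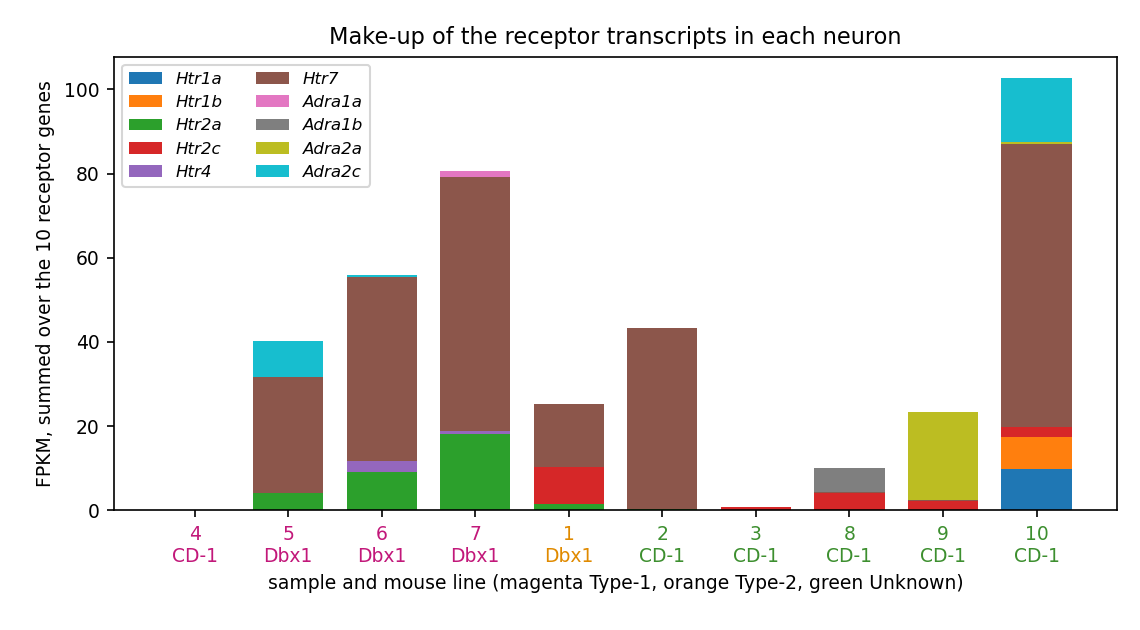
FPKM summed over the 10 receptor genes in each neuron, stacked by gene, with mouse line under each sample number and label colour for neuron type. Htr7 forms most of the bar in samples 5, 6, 7, 1, 2 and 10, Adra2a most of that of sample 9, and samples 3 and 4 are near 0.

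By coupling, the Gs sums followed Htr7, from 14.9 to 67.3 FPKM in 6 neurons and 0.2 FPKM or less in 4. The Gq sum was between 2.21 and 19.5 FPKM in 7 neurons and 0.671 FPKM or less in samples 2, 3 and 4. The Gi sum was 8.68, 21.1 and 32.9 FPKM in samples 5, 9 and 10, and 0.465 FPKM or less in the other 7. Sample 10 and sample 5 were the neurons with all 3 classes at 1 FPKM or more. By age, the number of receptor genes was 3, 0, 3 and 2 at P0 (samples 1, 3, 5 and 8), 5 at P1 (sample 10), 1 and 2 at P2 (samples 2 and 9), and 0, 3 and 3 at P3 (samples 4, 6 and 7). By transmitter genes, 5 neurons had the vesicular glutamate transporter Slc17a6 at 1 FPKM or more (samples 2, 5, 6, 7 and 8). A set of 4 had Gad1 or the glycine transporter Slc6a5 (samples 1, 3, 8 and 10), with sample 8 in both sets. The 2 other listed genes of GABA or glycine neurons gave other sets. Gad2 was also at 2.53 and 5.14 FPKM in samples 4 and 7, but at 0.0128 FPKM in sample 8. Slc32a1 reached 1 FPKM in sample 2 alone, at 5.95 FPKM, where Slc17a6 was at 1.85 FPKM. Htr7 was at 1 FPKM or more in 4 of the 5 neurons with Slc17a6 and 2 of the 4 with Gad1 or Slc6a5. Htr2a was so in 3 of the 5 and 1 of the 4, and Htr2c in 1 of the 5 and 3 of the 4. The Type-2 sample 1 differed in these genes from the other Dbx1;Ai148 neurons. It had Slc6a5 at 146, Gad1 at 71.8 and Gad2 at 43.5 FPKM, with Slc17a6 at 0.26 FPKM. In samples 5, 6 and 7 Slc17a6 was at 101, 158 and 156 FPKM. The part of transmitter type in the receptor levels was not tested.

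Other receptors of the same families were scarcer. Of their pairs of gene and neuron, 3.75% for 8 serotonin receptor genes and 4% for 5 adrenoceptor genes reached 1 FPKM. Over all listed genes 13.4% of pairs did. Of the 8 further serotonin receptor genes, 3 reached 1 FPKM, each in 1 neuron, where 29.9% of all listed genes did so in at least 1. They were Htr1d at 15.6 FPKM and Htr5a at 1.96 FPKM in sample 10, and Htr1f at 18.9 FPKM in sample 7. Sample 10, with Htr1a and Htr1b, was thus also the neuron with Htr1d. Htr2b, Htr5b and the ion channel subunits Htr3a and Htr3b had 0 fragments in all 10 neurons, which allows up to 3 per library, and Htr6 peaked at 0.155 FPKM. Among further adrenoceptor genes, Adrb1 was at 4.29 FPKM in sample 10, and Adra1d, Adra2b and Adrb3 stayed at 0.0173 FPKM or less in all neurons.

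Of the G proteins that these receptors use, all 9 alpha subunit genes reached 1 FPKM in 5 to 9 neurons. Over all listed genes, 13.6% did so in at least 5 neurons. The 3 highest means belonged to the Gi and Go class, in which the genes were Gnai1 at 67.2 ± 57.9 FPKM, Gnai2 at 52.2 ± 50.2 FPKM, Gnaz at 50 ± 33.5 FPKM, Gnao1 at 19.3 ± 10.8 FPKM and Gnai3 at 15 ± 22.6 FPKM (SD, n = 10 neurons). Of the Gq class, Gna11 was at 33.9 ± 26.2 FPKM and Gnaq at 5.2 ± 6.48 FPKM. Of the Gs class, Gnal was at 7.05 ± 7.74 FPKM and Gnas at 5.75 ± 13.3 FPKM. Gnas shares exon bases with Nespas and Gm20721, Gnal with Mppe1 and Gnao1 with 4930488L21Rik on the other strand, so fragments there could be lost or assigned to either, and these levels are uncertain. In sample 10, with 5 receptor genes, Gnai1 was at 121 FPKM and Gnal at 21.5 FPKM. Sample 4 had the fewest, with 3 alpha subunit genes at 1 FPKM or more. Gnai2 was at 114 FPKM there, in the library high in microglial markers. Without sample 4 the mean of Gnai2 was 45.3 ± 48 FPKM, below the 55.6 ± 30.3 FPKM of Gnaz (SD, n = 9 neurons).

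Over all listed genes, 13.6% reached 1 FPKM in at least 5 neurons and 29.9% in at least 1. Of 12 adenylyl cyclase and phospholipase C beta genes, 3 reached 1 FPKM in at least 5 neurons. They were the phospholipase Plcb4 in 9 neurons (14.3 ± 13.2 FPKM, SD, n = 10 neurons) and the cyclases Adcy1 and Adcy5 in 5 each. Another 7 genes did so in 1 to 4 neurons, and Adcy6 and Adcy9 in none. Sample 1, where Plcb4 was at 0.0782 FPKM, had none of the 12 at that level, although Htr2c, Htr2a and Htr7 were at 8.84, 1.52 and 14.9 FPKM there. Of 10 genes for receptor kinases, arrestins and RGS proteins, which end the signal, 8 reached 1 FPKM in at least 5 neurons: Grk2, Grk3, Grk6, Arrb1, Arrb2, Rgs2, Rgs4 and Rgs7. Rgs2, which acts on Gq, had the highest mean, 41 ± 83.1 FPKM, of which sample 4, the library high in microglial markers, gave the most at 271 FPKM. Without sample 4 the mean of Rgs2 was 15.5 ± 20.8 FPKM (SD, n = 9 neurons), below the 35.1 ± 35.5 FPKM of Rgs4. Between 5.13 and 68 FPKM was measured in 8 neurons, and 0.142 FPKM in sample 1.

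Among genes that make and carry monoamines, Tph1 and Tph2 (serotonin synthesis), Th and Dbh (noradrenaline synthesis) and the transporters Slc6a4 and Slc6a2 had 0 fragments in all 10, which allows up to 3 per library, and Ddc had 1. The vesicular monoamine transporter Slc18a2 was at 2.39, 1.65 and 1.81 FPKM in samples 5, 6 and 10 and below 1 FPKM elsewhere. Of the enzymes that break down monoamines, Maoa was at 1 FPKM or more in 7 neurons (14.2 ± 18.2 FPKM, SD, n = 10 neurons) and Maob in 2. Slc18a2 shares exon bases with Gm29261 and Adar with Chrnb2, both on the other strand, so these levels are uncertain. For the editing of Htr2c RNA, Adar was at 1 FPKM or more in 6 neurons, Adarb1 in 5 and Adarb2 in 2. Sample 1, with the highest Htr2c, had all 3 genes, at 8.74, 3.93 and 34.1 FPKM, and so did sample 10, at 3.26, 8.63 and 21.1 FPKM. Editing itself was not measured by these counts.

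The genes whose levels followed the 3 widespread receptors most closely were sought among genes that reached 1 FPKM in 3 neurons or more, with 10419 compared, by the Pearson correlation of log2(FPKM + 1) over the 10 neurons. For Htr2a they were Glra3, a glycine receptor subunit (r = 0.98), Btbd3 (0.98) and Slc9a5, a sodium-proton exchanger (0.97). Glra3 was at 1.88, 6.53 and 9.79 FPKM in samples 5, 6 and 7 and 2.34 FPKM in sample 1, and at 0.00984 FPKM or less elsewhere, and like Htr2a it was lowest in sample 5 and highest in sample 7 of these 3. For Htr7 they were Zfp946 (0.94), Sugp2 (0.93) and Tbc1d17 (0.92), and for Htr2c they were Strn (0.92), Ptchd1 (0.92) and Gm48536 (0.90). In the order named, the Spearman rho was 0.83, 0.73 and 0.79 for Htr2a, 0.90, 0.77 and 0.70 for Htr7, and 0.69, 0.74 and 0.77 for Htr2c. The genes were picked as the highest of 10419, which by itself favours high r. These correlations describe the 10 libraries, which share preparation and differ in type, line and number of genes found. Between the receptors, Htr2a and Htr7 had r = 0.59 and rho = 0.59.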

How the data were processed

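RNA of 10 single neurons was sequenced after SMART-Seq v4 amplification. The authors trimmed the reads, aligned them to GRCm38 with STAR (2.7.7a in the submitters' processing notes) and counted fragments per gene with featureCounts. The deposited tables hold unnormalized fragment counts, the length of each gene, and FPKM, which equals the count per kilobase and per 1000000 counted fragments. The handling of multiply matching fragments and of strand is not given in the sources used here.

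FPKM was used as deposited, with 1 FPKM as the limit for presence. TPM, FPKM on TMM library sizes (edgeR 4.0.16), thinned counts, other limits and other sets of neurons were tried as alternatives. Counts expected from other libraries used genes nearly private to 1 library (1000 counts or more there, no other library above 2% of that number), without the highest 5% of ratios per pair of libraries. These settings came from earlier work on the same data, and the calculation was tested on simulated data. The genes, lists and naming rules were chosen with earlier results of these data known: all 10 receptors, list genes in at least 5 neurons or with the highest mean of their list, and the 3 genes most like each receptor found in at least 3 neurons. Other list genes named, such as Maob, Htr6 and those at 0, were chosen after their values were seen. Some list genes are not reported here. Positions are from GENCODE M21, whose exon lengths equal the deposited lengths for 10 of 10 receptor genes, and RefSeq lists a promoter for 8. Calculations used pandas 2.3.3 and NumPy 2.4.6, intervals SciPy 1.17.1, and plots Matplotlib 3.10.9, all in Python 3.11.15.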

Additional observations from a re-analysis of the deposited data

Results flagged for a closer look

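Dixon's criterion, taken on log2(FPKM + 1) within the 4 Type-1 and the 5 Unknown neurons, marked a neuron far from the others of its type in 11 of 18 groups of values. Chance marks about 1 in 20 groups, and groups of values that are mostly at 0 are marked by a single neuron with fragments, so the marks are not independent.

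In Unknown neurons, sample 10 stood apart for Htr1a (9.79 FPKM against 0.178 or less), Htr1b (7.56 FPKM against 0) and Adra2c (15.2 FPKM against 0.0132 or less). Sample 9 stood apart for Adra2a (21 FPKM against 0.285 or less), and sample 8 for Adra1b (5.78 FPKM against 0). Sample 9 also did for Htr2a, at 0.0808 FPKM against 0.0295 or less, a value from 10 fragments.

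In Type-1 neurons, sample 7 stood apart for Adra1a (1.36 FPKM against 0) and sample 5 for Adra2c (8.68 FPKM against 0.452 or less). The other 3 marks rest on 1 fragment each: Htr1a at 0.00868 FPKM and Htr1b at 0.00824 FPKM in sample 7, and Adra1b at 0.010045 FPKM in sample 4.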

How the results depend on the processing

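The 22 pairs of gene and neuron became 29 with a limit of 0.1 FPKM, 15 with 5 FPKM, 31 with 10 fragments and 25 in TPM, and stayed 22 with TMM sizes, thinned libraries or counts less those expected from other libraries. Samples 5 to 10 alone gave 18, and leaving out each neuron in turn gave 17 to 22. The mean number of receptor genes was then 2 to 3 in Type-1 neurons and 1.25 to 2.5 in Unknown neurons. With a limit of 5 FPKM, Htr2a was found in 2 neurons and Htr2c in 1, in place of 4 each. Htr7 was found in 6 neurons under each limit but 0.1 FPKM and 10 fragments, which gave 8, the added neurons being samples 8 and 9. These counts for single genes were added after the data were seen. In TPM, whose values sum to the same total in each library, the means of Htr7, Htr2a and Htr2c were 71.3, 9.62 and 4.94. They lay beyond 1 SD above those in FPKM. However, the units differ in scale and the mean of every receptor gene was higher in TPM, so this is partly a change of unit. Means taken on a log2 scale and turned back were lower, at 8.44 FPKM for Htr7, 1.22 for Htr2a and 0.991 for Htr2c with 1 added, and 4.57, 0.484 and 0.457 with 0.1 added, in place of 25.8, 3.3 and 1.84. Like all moves of means outside TPM, these were within 1 SD, a wide limit for such uneven levels. Without the neuron that held it, the mean of Adra1a was 0 and that of Adra2a 0.0355 FPKM. No paired analysis was possible because no test was made and the labels give no pairs. For values at 0, the allowance of up to 3 fragments covers counting in the library only. Loss of RNA during aspiration and amplification was not measured, so a 0 does not show that the neuron lacked the transcript. Among the neuronal markers, Rbfox3 had 0 fragments in sample 10 and 5408 in sample 2.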
